A study of Mus musculus with 202 samples.

Results

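Single mouse oocytes of the F2-HFHS+DHT group, the granddaughter-generation oocytes of the combined diet and androgen lineage, were set against oocytes of the F2-CD+Veh lineage. All are oocytes arrested at metaphase of meiosis II (MII), the stage at which an egg can be fertilised, from C57Bl/6J mice, and each library is the polyA RNA of 1 oocyte read with Smart-seq2, a full-length single-cell method. Members were the oocytes titled F2-HFHS+DHT with at least 100000 counts over gene lines and at least 4000 genes with a count. All 5 of 5 were kept, of 157 kept of 202 in the whole series. The F2-CD+Veh group kept 16 of 20 oocytes, from animals 2, 3, 13 and 14.

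The lineages are named after the F0 female: HFHS stands for a diet high in fat and sugar, CD for the control diet, DHT for dihydrotestosterone, an androgen that cannot be converted to oestrogen, and Veh for vehicle. By its title F2-HFHS+DHT descends from F0 females given that diet and DHT, and F2-CD+Veh from F0 females given the control diet and vehicle. The hormone field of all 5 F2-HFHS+DHT oocytes says vehicle, against their titles, so whether the lineage received DHT rests on the title alone. F2-HFHS+Veh (20 oocytes of 4 animals, 8 of them with F3 in the generation field) and F2-CD+DHT (25 oocytes of 5 animals), which differ from the combined lineage by title in hormone and in diet, were used as further references. The animal is the number before the point in a title, and no animal is named for the 5 F2-HFHS+DHT oocytes. They are therefore cells of 1 sample, which could be 1 female, so nothing was tested and every difference below is a description.

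An MII oocyte makes almost no new RNA. Its transcripts were stored while it grew, and during maturation part of them is degraded and part is given longer polyA tails and translated. Such an oocyte runs on mitochondrial respiration, fed with pyruvate by the cumulus cells that surround it, and it carries the maternal factors that the embryo uses until its own genome is read. Steroid and metabolic disturbance of the mother is studied in oocytes because these stores pass to the next generation.

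The 5 F2-HFHS+DHT libraries held 1728447 to 7156586 gene counts (21093298 in all, 33.9% of them from 1 oocyte), and the 16 F2-CD+Veh libraries held 220777 to 13381587 (67313414 in all). Between 9735 and 10869 genes had a count in the F2-HFHS+DHT oocytes and between 8553 and 13420 in the F2-CD+Veh oocytes. After thinning every library to 100000 counts these ranges were 6324 to 6784 and 6019 to 7780. Spike-in RNA took 0.0840% to 0.0948% of the counts in F2-HFHS+DHT and 0.0575% to 0.147% in F2-CD+Veh. The 20 oocyte markers summed to 37710 to 51870 CPM (counts scaled to a total of 1000000) in the 5 oocytes and to 45250 to 57180 CPM in the 4 F2-CD+Veh animals, with Gdf9, the oocyte growth factor, at 3103 to 7618 CPM and 4912 to 9108 CPM. No oocyte marker was at 0 in either group. The pairwise Spearman correlation of the 5 oocytes over measured genes had a median of 0.924, as a description only. Medians within the 4 F2-CD+Veh animals were 0.884 to 0.929, and within the animals of the other F2 groups 0.800 to 0.944. Oocytes of different animals were not compared, so these values do not show whether the 5 came from 1 animal.

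RNA of cumulus cells was high in some F2-CD+Veh oocytes and in no F2-HFHS+DHT oocyte. Of 39 cumulus and granulosa markers, 26 had no count in the 5 F2-HFHS+DHT oocytes and 7 had none in the F2-CD+Veh oocytes, numbers that do not allow for the smaller depth of F2-HFHS+DHT (21093298 counts over 5 oocytes, against 67313414 over 16). Ldhb, Serpine2 and Cyp19a1 made up most of the summed level in every group. The other 36 summed to 32.4 to 58.0 CPM (median 49.4) in the F2-HFHS+DHT oocytes and to 30.8 to 1525 CPM (median 51.7) in the F2-CD+Veh oocytes. The medians were thus close, and the groups differed in the upper range: 5 of the 16 F2-CD+Veh oocytes (1 of animal 2, 2 of animal 3 and 2 of animal 14) lay above 200 CPM and no F2-HFHS+DHT oocyte did. Some of the F2-HFHS+Veh and F2-CD+DHT oocytes were also rich in these markers, with highest sums of 4323 and 2402 CPM. Its part in the differences was not tested. Values with these 5 oocytes left out, an alternative chosen after seeing the data, are given below beside the named genes that were set apart and beside most lists.

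**Figure D1:**
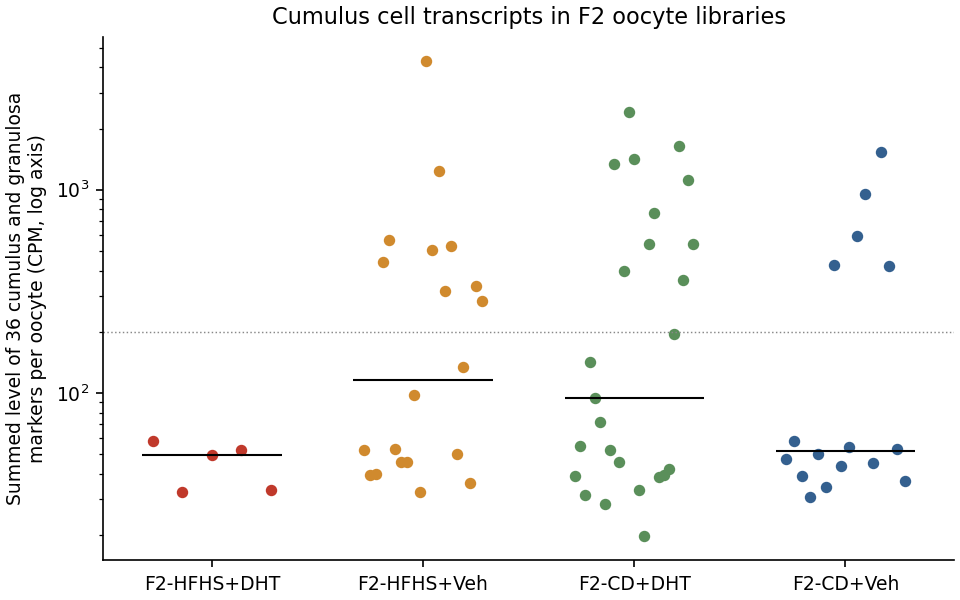
Summed level of 36 cumulus and granulosa markers in each F2 oocyte on a log axis, 1 point per oocyte, with the median of each group as a bar and a dotted line at 200 CPM. The 5 F2-HFHS+DHT oocytes lie between 32.4 and 58.0 CPM, and 5 of the 16 F2-CD+Veh oocytes lie above the line.

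Counts were pooled over the oocytes of a group and scaled to CPM. A gene was measured where either pooled group reached 20 CPM, which held for 4905 genes. It was called set apart where the pooled levels differed by at least 2-fold and the F2-HFHS+DHT level lay outside the range of the 4 F2-CD+Veh animals. Few genes met this: 2 were higher (0.0408% of those measured) and 38 were lower (0.775%). The 2 higher genes reached 20 CPM in F2-HFHS+DHT only, and most of the lower genes in F2-CD+Veh only. These were thus measured through the group in which they are high, and the counts depend on the minimum. At 50 CPM they were 0 and 11. The median log2 fold over all measured genes was -0.03, and 46.6% of the folds were positive. Regardless of size, the pooled F2-HFHS+DHT level lay above all 4 F2-CD+Veh animals for 696 genes (14.19% of those measured) and below all 4 for 497 (10.13%). At 2-fold alone 2 genes were higher and 67 lower, whereas single animals of the other 3 F2 groups, held against the same pooled F2-CD+Veh oocytes, of which the F2-CD+Veh animals are themselves part, had 0 to 159 higher and 44 to 1214 lower. The number of large differences in the combined lineage was therefore within the range of single F2 animals, controls included. With scaling by trimmed mean of M-values (TMM) the median fold moved to 0.11 and the split became 12 higher and 21 lower, and with DESeq2 size factors it moved to 0.14 with 13 higher and 20 lower. Without the 5 F2-CD+Veh oocytes rich in cumulus RNA, 18 were higher and 18 lower, of which 1 and 8 were among the genes first called. The counts also moved with single libraries: without animal 3 there were 43 higher and 20 lower, without animal 13 there were 112 lower, without animal 14 there were 75 lower, and without F2-HFHS+DHT oocyte 4 there were 10 higher and 103 lower.

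**Figure D2:**
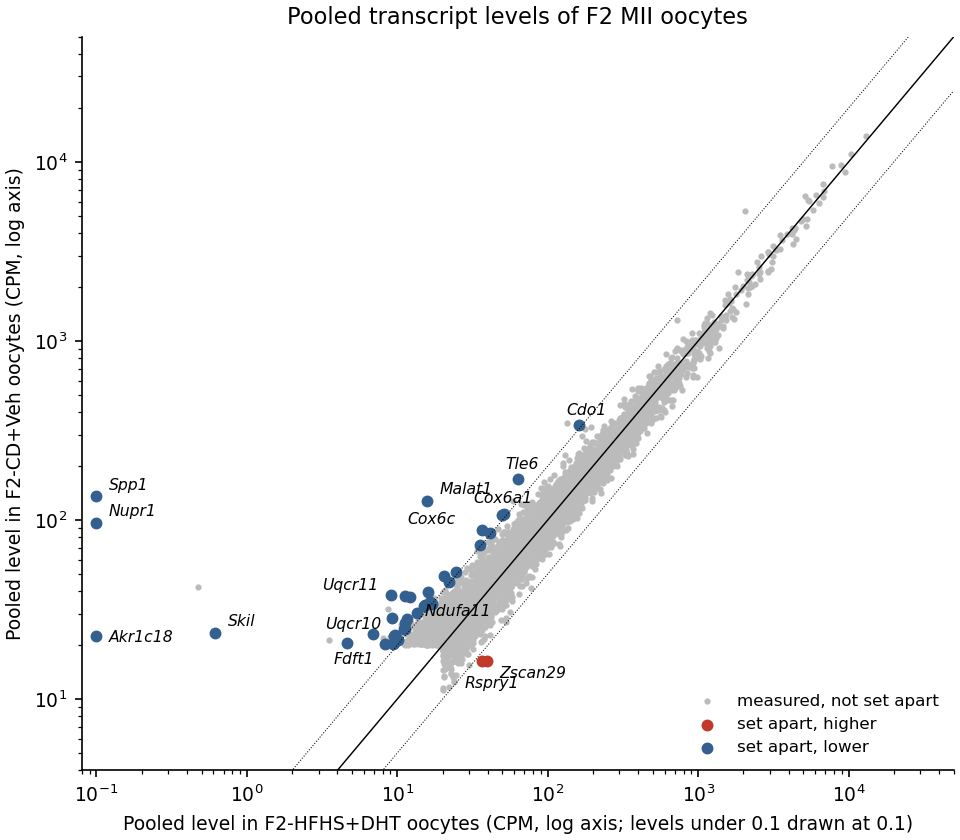
Pooled level of each of 4905 measured genes in F2-HFHS+DHT oocytes (horizontal) and F2-CD+Veh oocytes (vertical), both in CPM on log axes, with dotted lines at 2-fold. The 2 genes set apart higher and the 38 set apart lower are coloured, and most genes lie between the dotted lines.

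The higher genes were Zscan29 and Rspry1. Zscan29, which encodes a zinc finger protein with a SCAN domain, had 54.5, 15.04, 20.97, 30.8 and 43.7 CPM in the 5 F2-HFHS+DHT oocytes, against 17.8, 27.8, 6.83 and 6.63 CPM in F2-CD+Veh animals 2, 3, 13 and 14. Its pooled level was 39.3 CPM (exact Poisson 95% interval 36.6 to 42.0, counting error only), against 16.3 CPM, a log2 fold of 1.27. All 5 oocytes lay above the median F2-CD+Veh oocyte (10.9 CPM), although 2 of them lay inside the range of the animals. Zscan29 (chromosome 2, 121158273 to 121171125, minus strand, GRCm38) was also set apart higher against F2-HFHS+Veh (log2 1.22) and against F2-CD+DHT (log2 1.43). Without the cumulus-rich F2-CD+Veh oocytes its log2 fold was 1.68, without animal 3 it was 2.07, and it fell short of 2-fold without oocyte 1 or without animal 13 (0.95 each). Rspry1, a RING and SPRY domain gene, had 25.43, 57.9, 26.58, 4.68 and 81.3 CPM in the 5 oocytes, against 20.7, 11.4, 18.5 and 19.7 CPM in the 4 animals. Its log2 fold was 1.15, oocytes 2 and 5 were the highest, and oocyte 4 lay below every animal. It was below 2-fold without oocyte 5 (log2 0.50), without animal 3 (0.91) and without the cumulus-rich oocytes (0.83). Against F2-HFHS+Veh the log2 fold of Rspry1 was 0.80, and against F2-CD+DHT it was -0.01 (36.4 CPM in F2-HFHS+DHT and 36.8 CPM in F2-CD+DHT).

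Smaller but more even differences stood out when oocytes were compared one by one. For 6 genes (0.122% of those measured) every F2-HFHS+DHT oocyte was above every one of the 16 F2-CD+Veh oocytes, and for 0 genes (0.0%) every one was below. Where oocytes are held against F2-CD+Veh animals in this report, each animal's level is pooled over its oocytes. Oocytes below all 4 animals can thus still lie among single F2-CD+Veh oocytes. The share of all measured genes with all 5 oocytes below all 4 animals is not given here. The 6 genes separated upward were Dennd4a, Esyt2, Map4k5, Abhd13, Nfxl1 and Mapre1. Against the single oocytes of F2-HFHS+Veh and of F2-CD+DHT no gene was separated in either direction (0 each). For genes that stay measured, leaving out oocytes or animals can only keep or add to those separated. Without animal 3 there were 66 higher and 4 lower, and without the cumulus-rich oocytes 40 higher and 5 lower. The 6 genes depended on scaling and depth: TMM scaling gave 8 such genes with 2 of the 6 among them, DESeq2 size factors 8 with 1 of the 6, thinning each oocyte to 200000 counts 3 with 0 of the 6, and keeping every oocyte 3.

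Dennd4a, a guanine nucleotide exchange factor for Rab10 in membrane traffic, had 116, 139, 131, 130 and 108 CPM in the 5 oocytes, against 31.1 (lowest), 66.6 (median) and 99.3 (highest) CPM in the 16 F2-CD+Veh oocytes. Its log2 fold of 0.76 was the largest of the 6. Esyt2, an extended synaptotagmin that tethers the endoplasmic reticulum to the plasma membrane, had 645, 538, 533, 506 and 528 CPM, against 181, 382 and 477 CPM (lowest, median and highest), a log2 fold of 0.58. Oocyte 1 was the highest and the remaining 4 lay close together. Map4k5, a kinase of the germinal centre family upstream of Jun kinase, had 836, 673, 726, 727 and 797 CPM, against 263, 492 and 653 CPM, a log2 fold of 0.55. Abhd13, a predicted hydrolase, had 530, 481, 455, 454 and 547 CPM, against 213, 351 and 444 CPM, a log2 fold of 0.45. Nfxl1, an NFX1-type zinc finger gene, had 706, 679, 567.6, 538 and 649 CPM, against 281, 449 and 519 CPM, also a log2 fold of 0.45. In these 3 the nearest oocytes of the groups were close, and the separation is one of small steps. Mapre1, which encodes the microtubule plus-end protein EB1 and is an orthologue of a polycystic ovary syndrome (PCOS) locus gene, had 716, 732, 645, 701 and 735 CPM, against 412, 574 and 631 CPM. Its log2 fold was 0.29, and the lowest F2-HFHS+DHT oocyte exceeded the highest F2-CD+Veh oocyte narrowly. The 6 log2 folds without the cumulus-rich oocytes were 0.33 to 0.86. Against F2-HFHS+Veh they were 0.22 to 0.64 and against F2-CD+DHT 0.28 to 0.77.

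**Figure D3:**
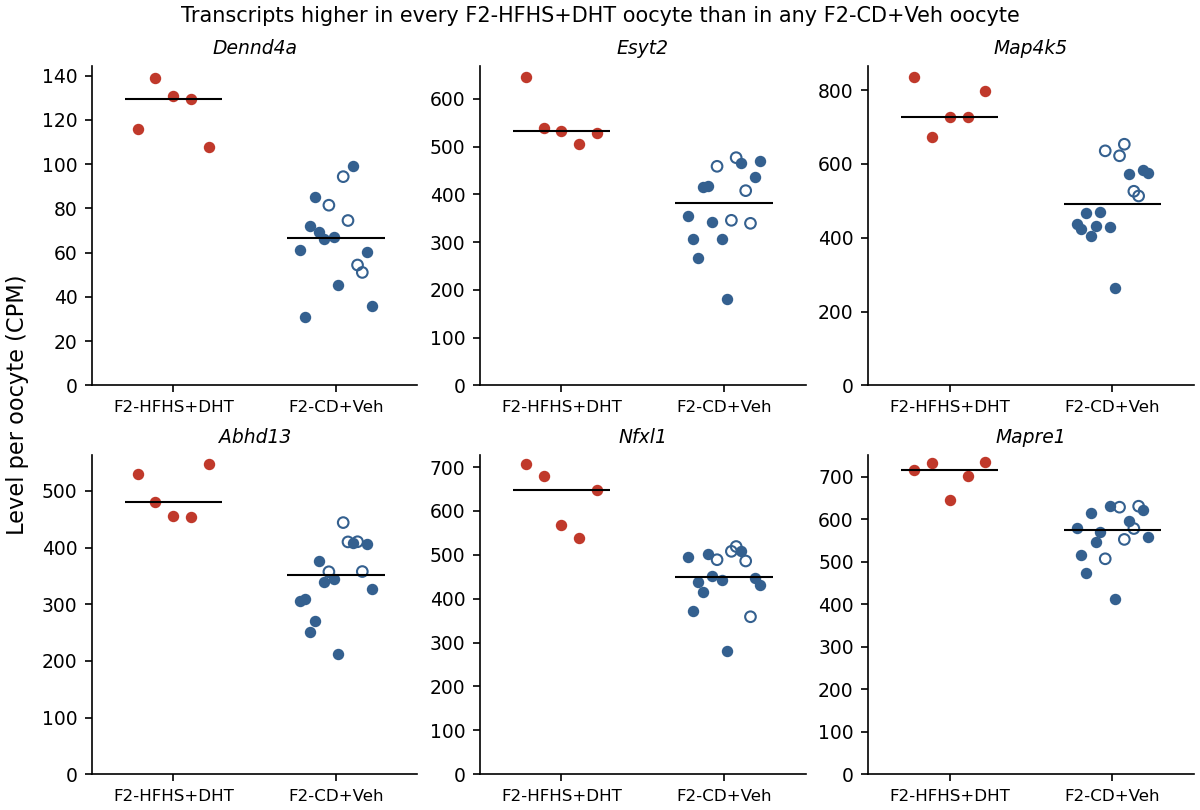
Level per oocyte in CPM of the 6 genes for which the groups did not overlap, with F2-HFHS+DHT (5 oocytes) on the left and F2-CD+Veh (16 oocytes) on the right of each panel, and the group medians as bars. Open points are the F2-CD+Veh oocytes rich in cumulus RNA. Relative to its level the gap is widest for Dennd4a, where the lowest F2-HFHS+DHT oocyte has 108 CPM and the highest F2-CD+Veh oocyte 99.3 CPM, and narrow for Abhd13 and Mapre1.

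Among the lower genes, subunits of the respiratory chain formed the largest group taken from a list. Of 77 nuclear genes of oxidative phosphorylation 27 were measured, 5 were set apart lower, beside 0.775% of all measured genes, and 0 higher. Their median log2 fold was -0.42, beside -0.03 over all measured genes, and 3 of the 27 were positive, beside 46.6% of all. Of the 5, Ndufa11, Uqcr10 and Uqcr11 reached 20 CPM in F2-CD+Veh only, so they were measured through the group in which they are high. The counts and the median of the list are therefore no independent support for a low level. The pooled level of 16 of the 27 lay below all 4 F2-CD+Veh animals, beside 10.13% of all measured genes, and that of 0 above, beside 14.19%. Of measured genes with a longest transcript under 1000 bases 34.1% lay below all 4 animals, and from 1000 to 2000 bases 19.8%. The longest transcripts of Ndufa11, Uqcr10, Uqcr11 and Cox6a1 have 918, 510, 605 and 620 bases, and that of Cox6c 3038. Against F2-HFHS+Veh the median of the list was -0.21 and against F2-CD+DHT it was -0.35. The summed level of the 77 genes was 2143, 2411, 2594, 2743 and 2125 CPM in the 5 oocytes, against 3239, 3683, 2700 and 2887 CPM in animals 2, 3, 13 and 14. Oocyte 4 alone lay above the lowest animal. Without the cumulus-rich oocytes the median was -0.22 and none of the 5 genes was set apart.

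The 5 subunits belong to 3 of the complexes that pass electrons to oxygen. The promoters of 4 of them, as 250 bases before the RefSeq start in GRCm38.p6, are shown because such genes are textbook targets of nuclear respiratory factor 1 (NRF1) and of ETS-family factors. Capitals mark matches on either strand to the NRF1 core GCATGCGC, of which overlapping copies form 1 run, or to the ETS motif CCGGAAG.

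Ndufa11 (chr17:56717512-56717761, plus strand): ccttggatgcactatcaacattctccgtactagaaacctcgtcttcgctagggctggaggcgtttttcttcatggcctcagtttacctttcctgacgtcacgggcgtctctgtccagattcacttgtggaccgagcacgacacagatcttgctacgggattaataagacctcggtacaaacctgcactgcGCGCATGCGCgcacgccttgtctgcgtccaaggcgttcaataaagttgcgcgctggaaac
Uqcr10 (chr11:4704345-4704594, minus strand): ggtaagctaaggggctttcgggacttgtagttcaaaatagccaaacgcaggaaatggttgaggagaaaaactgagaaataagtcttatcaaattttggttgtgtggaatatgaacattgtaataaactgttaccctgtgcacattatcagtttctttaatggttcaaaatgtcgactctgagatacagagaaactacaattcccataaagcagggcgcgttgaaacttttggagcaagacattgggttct
Uqcr11 (chr10:80406822-80407071, minus strand): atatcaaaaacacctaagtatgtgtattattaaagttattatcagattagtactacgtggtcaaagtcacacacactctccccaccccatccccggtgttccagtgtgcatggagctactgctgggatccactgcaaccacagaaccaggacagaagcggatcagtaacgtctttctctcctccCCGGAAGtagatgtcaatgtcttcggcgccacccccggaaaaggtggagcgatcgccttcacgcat
Cox6a1 (chr5:115348959-115349208, minus strand): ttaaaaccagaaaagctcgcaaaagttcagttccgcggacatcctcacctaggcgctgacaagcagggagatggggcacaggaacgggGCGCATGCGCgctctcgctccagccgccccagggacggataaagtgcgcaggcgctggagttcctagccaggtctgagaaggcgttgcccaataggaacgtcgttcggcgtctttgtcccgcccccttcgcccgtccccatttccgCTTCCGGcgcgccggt

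The NRF1 core was found in the windows of Ndufa11 and Cox6a1 and the ETS motif in those of Uqcr11 and Cox6a1, and neither in that of Uqcr10. Over 32851 RefSeq windows of this length 2.26% held the NRF1 core and 6.91% the ETS motif. Among the 4952 windows of measured genes 261 held the NRF1 core and 707 the ETS motif, and among the 24 windows of measured oxidative phosphorylation genes 3 and 6 did. A match is a description of the letters and not of binding, and no measurement of either factor bears on it here.

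In complex I, which takes electrons from NADH, Ndufa11 had 5.87, 7.52, 14.98, 21.1 and 12.8 CPM in the 5 F2-HFHS+DHT oocytes, against 26.46, 53.3, 31.0 and 21.98 CPM in F2-CD+Veh animals 2, 3, 13 and 14. All 5 oocytes lay below all 4 animals, and the pooled log2 fold was -1.61. Ndufa1 (40.3 and 75.5 CPM pooled in F2-HFHS+DHT and F2-CD+Veh) and Ndufa4 (176 and 324 CPM) had log2 folds of -0.91 and -0.88. Ndufb6 was nearly level at 64.8 CPM in F2-HFHS+DHT and 66.8 CPM in F2-CD+Veh. Complex I thus held both low folds and folds near 0.

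In complex III, which passes electrons to cytochrome c, Uqcr10 had 10.34, 4.05, 15.7, 8.08 and 15.5 CPM in the 5 oocytes, against 23.6, 36.2, 17.9 and 23.1 CPM in the animals. Each oocyte was below each animal, and the log2 fold was -1.25. Uqcr11 had 5.73, 7.52, 28.1, 20.8 and 2.28 CPM, against 19.11, 69.2, 14.8 and 24.7 CPM, a log2 fold of -1.74 with overlapping oocytes and animals. The core subunit Uqcrc2, by contrast, had 348 CPM in F2-HFHS+DHT and 374 CPM in F2-CD+Veh, a log2 fold of -0.11. In complex IV, cytochrome c oxidase, Cox6c had 31.4, 27.8, 52.8, 53.6 and 21.7 CPM, against 63.5, 122, 59.1 and 85.3 CPM. Again the oocytes and the animals did not overlap, and the log2 fold was -1.27. Cox6a1 had 20.1, 42.8, 58.8, 103 and 38.7 CPM, against 115, 169, 55.2 and 52.9 CPM, a log2 fold of -1.10 with overlap. Cox5a was among the 3 of 27 with a positive log2 fold (0.13, with 178 CPM in F2-HFHS+DHT and 163 CPM in F2-CD+Veh). In complex II and the ATP synthase no gene was set apart: Sdha and Atp5a1 had log2 folds of 0.01 and 0.14, and Atp5e -0.81.

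These folds were sensitive to the cumulus-rich F2-CD+Veh oocytes. Without them the log2 folds were -0.99 for Ndufa11, -0.70 for Cox6c, -0.62 for Uqcr10, -0.42 for Cox6a1 and -0.29 for Uqcr11. Without animal 3, which holds 2 of those oocytes, they were -1.17 for Ndufa11, -0.89 for Cox6c and Uqcr10, -0.72 for Uqcr11 and -0.47 for Cox6a1, and Cox6a1 was at -0.72 without oocyte 1. Ndufa11, Cox6c and Uqcr10 were below all 13 F2 animals of the 3 other groups, at 12.1, 36.6 and 11.2 CPM pooled against lowest animals at 15.6, 41.9 and 14.51 CPM. Uqcr11 was nearly level with F2-HFHS+Veh (log2 -0.04) and F2-CD+DHT (log2 -0.08). Complex members that the naming rule did not pick were chosen here after their values were seen.

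**Figure D4:**
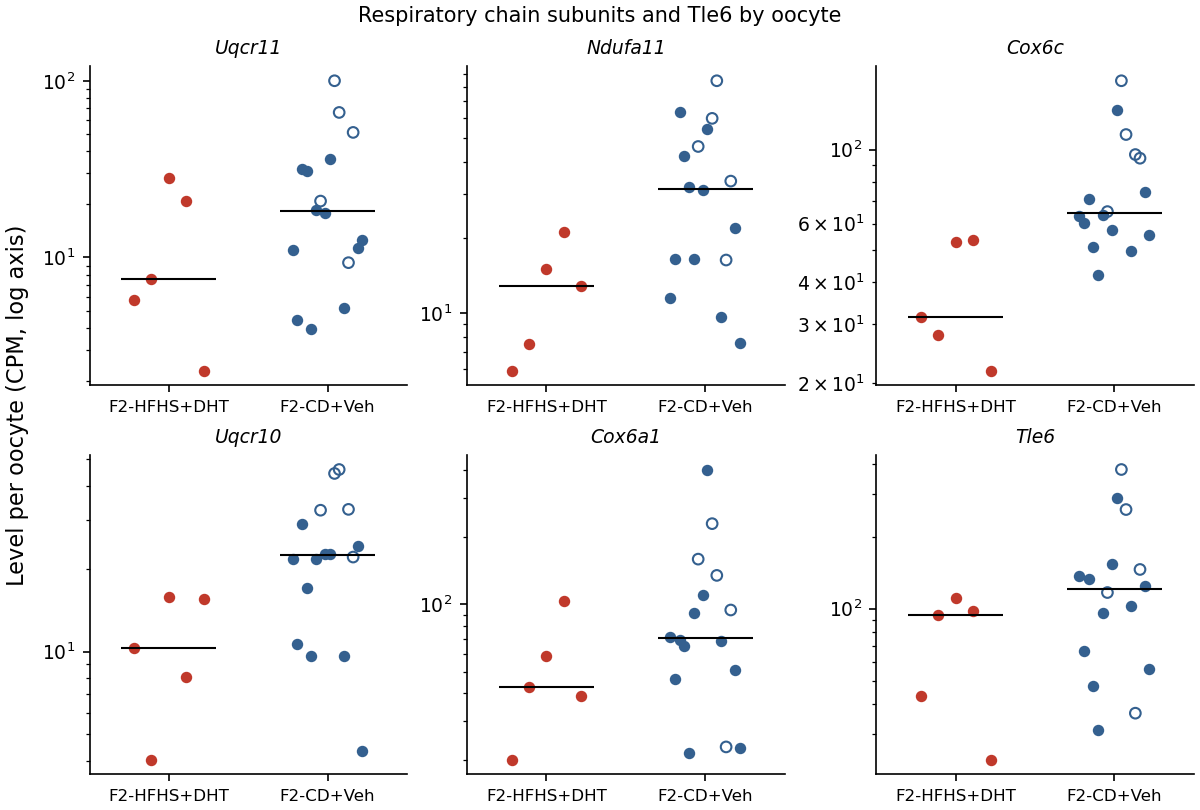
Level per oocyte in CPM on log axes of 5 respiratory chain subunits and of Tle6, with F2-HFHS+DHT (5 oocytes) on the left and F2-CD+Veh (16 oocytes) on the right of each panel, and the group medians as bars. Open points are the 5 F2-CD+Veh oocytes rich in cumulus RNA. The F2-HFHS+DHT medians lie below the F2-CD+Veh medians in all 6 panels, and the oocytes of the groups overlap in each.

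Transcript length moved with the folds. The longest annotated transcript of the genes set apart lower had a median of 2015 bases (37 of 38 genes matched), against 3759 bases for all measured genes, and 18.9% against 2.81% were shorter than 1000 bases. With the oxidative phosphorylation genes left out the median of the lower genes was 2219 bases. The 6 genes separated upward had a median of 5375 bases. The median log2 fold was -0.22 for genes under 1000 bases, -0.17 from 1000 to 2000, -0.05 from 2000 to 4000, 0.03 from 4000 to 8000 and 0.06 for longer ones. Among the F2-CD+Veh animals it ran from -0.10 to 0.34 in animal 3 in the same order and from 0.05 to -0.32 in animal 14. The share of genes whose pooled F2-HFHS+DHT level lay below all 4 F2-CD+Veh animals was, in that order, 34.1%, 19.8%, 9.85%, 6.28% and 5.08%. The part of length in the results was not tested. When folds were taken relative to genes of like length, an alternative chosen after seeing the data, 25 of the 38 lower genes stayed set apart, with 4 higher.

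**Figure D5:**
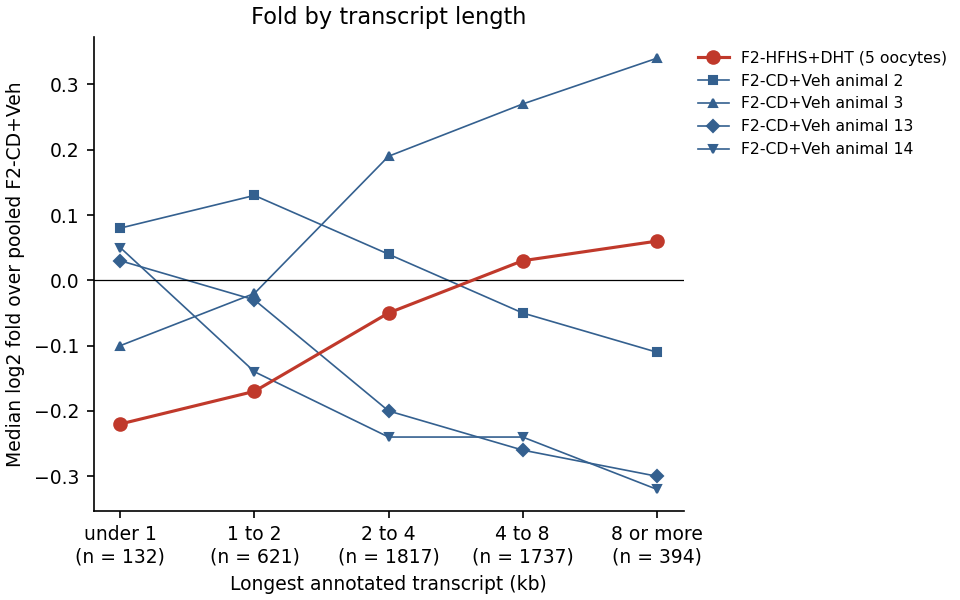
Median log2 fold over the pooled F2-CD+Veh oocytes by length of the longest annotated transcript, for the 5 F2-HFHS+DHT oocytes pooled and for each F2-CD+Veh animal, with the number of genes in each class. The F2-HFHS+DHT line climbs from -0.22 to 0.06, while F2-CD+Veh animals 13 and 14 slope the other way and animal 3 climbs to 0.34.

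Maternal-effect genes, whose products the early embryo needs from the egg, were mostly near level. Of 40 listed 28 were measured, 1 was set apart lower, beside 0.775% of all measured genes, and 0 higher. The median log2 fold was -0.15, with -0.13 without the cumulus-rich oocytes. Regardless of size 4 of the 28 lay below all 4 animals and 1 above, beside 10.13% and 14.19% of all measured genes. The gene set apart was Tle6, a member of the subcortical maternal complex that supports the first cleavages in mouse. Tle6 had 43.3, 93.7, 111, 97.8 and 23.4 CPM in the 5 F2-HFHS+DHT oocytes, against 122, 285, 90.1 and 93.5 CPM in F2-CD+Veh animals 2, 3, 13 and 14. The pooled log2 fold was -1.41, and oocytes 1 and 5 lay below every animal while the other 3 lay among them. It was -0.63 without animal 3 and -0.65 without the cumulus-rich oocytes. Other members of the complex were less low or level. Ooep had 95.2 CPM in F2-HFHS+DHT and 164 CPM in F2-CD+Veh (log2 -0.78). Padi6 had 160 and 238 CPM (log2 -0.57) and Nlrp5 225 and 298 CPM (log2 -0.41). Without the cumulus-rich oocytes these 3 folds were -0.47, -0.25 and -0.25. None of these 3 was set apart, although Nlrp5 lay below all 4 animals, as did Nlrp2 (log2 -0.57) and H1foo (log2 -0.29). Zbed3, also of the complex, had 6844 CPM in F2-HFHS+DHT and 6837 CPM in F2-CD+Veh (log2 0.00). Dppa3, which protects maternal DNA methylation in the zygote, was level at 3911 CPM in F2-HFHS+DHT and 3980 CPM in F2-CD+Veh, as was Btg4, an adaptor for maternal mRNA decay, at 4975 and 4813 CPM. Nlrp4f, at 1035 CPM in F2-HFHS+DHT and 796 CPM in F2-CD+Veh (log2 0.38), was the 1 member above all 4 animals.

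Of 8 measured genes for the zona pellucida and sperm contact none was set apart, with a median log2 fold of -0.39. Regardless of size 3 of the 8 lay below all 4 animals and 1 above, beside 10.13% and 14.19% of all measured genes. Zp3, which encodes a structural zona protein, had 102, 205, 170, 181 and 72.0 CPM in the 5 oocytes, against 277, 263, 191 and 182 CPM in the animals, a log2 fold of -0.82 and of -0.66 without the cumulus-rich oocytes. Zp1 and Zp2, 2 further zona proteins, had log2 folds of -1.03 and -0.45. Zp1 reached the fold but lay within the range of the animals (50.3 CPM pooled, against 44.6 to 166 CPM). Without the cumulus-rich oocytes the median of the list was -0.17. Oosp1 and Oosp3, secreted oocyte proteins, had log2 folds of 0.09 and 0.15.

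Genes that hold the MII arrest and build the spindle did not differ by 2-fold. Of 27 measured arrest and anaphase-promoting complex genes and 31 spindle, checkpoint and cohesin genes none was set apart, and the medians were -0.02 and 0.02, with -0.01 and 0.02 without the cumulus-rich oocytes. Of the 27 arrest genes 3 lay above all 4 animals and 3 below, and of the 31 spindle genes 6 lay above and 2 below. Over all measured genes the shares were 14.19% above and 10.13% below. Mos, the kinase that keeps the arrest through MAP kinase, had 665 CPM in F2-HFHS+DHT and 816 CPM in F2-CD+Veh (log2 -0.29). Anapc11, the RING subunit of the anaphase-promoting complex, had 58.3, 32.98, 66.6, 55.9 and 44.1 CPM, against 136, 99.9, 77.9 and 67.4 CPM, a log2 fold of -0.80 and of -0.73 without the cumulus-rich oocytes. All 5 of its oocytes lay below all 4 animals, although the lowest single F2-CD+Veh oocyte, at 16.1 CPM, lay below all 5. Fbxo43, which encodes the inhibitor Emi2 that blocks that complex, was above all 4 animals at 315 CPM in F2-HFHS+DHT and 258 CPM in F2-CD+Veh (log2 0.29). So were Wee2 (log2 0.30), the oocyte kinase that restrains CDK1, and Rad21 (log2 0.34), a cohesin subunit. Cdc27, another subunit of the anaphase-promoting complex, was also above all 4 animals (log2 0.31). Cdk1 itself (log2 -0.63) and Aurkc (log2 -0.43) lay below all 4, so the list shows no single direction. Tacc3, a spindle protein, had 90.5 CPM in F2-HFHS+DHT and 150 CPM in F2-CD+Veh (log2 -0.73), within the range of the animals.

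In the list of DNA methylation and chromatin genes 41 of 53 were measured, 1 was set apart lower, beside 0.775% of all measured genes, and 0 higher. The median log2 fold was 0.02, with 0.16 without the cumulus-rich oocytes. Dnmt3l, the cofactor of the de novo DNA methyltransferases in growing oocytes, had 3.77, 17.9, 38.2, 32.7 and 1.45 CPM in the 5 oocytes, against 35.2, 49.3, 20.6 and 20.1 CPM in the animals. Its log2 fold was -1.14. Oocytes 1, 2 and 5 lay below every animal, and oocytes 3 and 4 lay above animals 13 and 14. It was -0.67 without oocyte 1, -0.79 without oocyte 5, -0.65 without animal 3 and -0.62 without the cumulus-rich oocytes. Dnmt1 (log2 -0.28), Dnmt3a (log2 -0.14) and Tet3 (log2 0.17) lay within the range of the animals. Sirt1, a deacetylase, had the highest fold of the list, with 76.9 CPM in F2-HFHS+DHT and 41.8 CPM in F2-CD+Veh (log2 0.88, and 1.26 without the cumulus-rich oocytes). Its 5 oocytes ran from 49.8 to 106 CPM, all above the pooled F2-CD+Veh level. Rnf2 (log2 0.43) and Suz12 (log2 0.37), core subunits of the Polycomb complexes, were also above all 4 animals, while Eed (log2 0.14), Ezh2 (log2 0.17) and Ezh1 (log2 -0.35) of the same machinery lay within their range. In all 6 of the 41 genes lay above all 4 animals and 1 below, a share above that is close to the 14.19% of all measured genes. Imprinted genes had a median of -0.21 over 11 measured, with Asb4 (log2 0.81) and Ube3a (log2 0.41) above all 4 animals and 0 set apart. Asb4 had 43.9, 91.4, 13.48, 7.65 and 47.6 CPM in the 5 oocytes, against 13.68 (lowest) to 31.1 (highest) CPM in the animals, so that 3 oocytes lay above every animal and 2 below every animal.

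Cholesterol and steroid genes bear on the androgen treatment of the lineage by its title. Fdft1, squalene synthase, the first enzyme committed to sterol synthesis listed here among orthologues of human PCOS locus genes, had the lowest fold of the lipid and cholesterol list. It had 1.68, 11.6, 2.995, 7.65 and 4.35 CPM in the 5 F2-HFHS+DHT oocytes, against 34.5, 25.43, 14.6 and 8.39 CPM in F2-CD+Veh animals 2, 3, 13 and 14. The log2 fold was -2.16 (4.60 CPM pooled, exact Poisson 95% interval 3.73 to 5.61, against 20.5 CPM), and 4 of the 5 oocytes lay below all animals. It was -2.33 without the cumulus-rich oocytes, -1.22 against F2-HFHS+Veh and -1.58 against F2-CD+DHT. Fdft1 was the 1 gene set apart among 17 measured lipid and cholesterol genes, beside 0.775% of all measured genes set apart lower. The median of the list was -0.05, and 0.07 without the cumulus-rich oocytes. Hmgcs1 (log2 -0.11) and Sc5d (log2 0.00), other enzymes of the pathway, were near level.

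Among 18 measured androgen and steroid genes the median log2 fold was -0.01, with 1 set apart lower, beside 0.775% of all measured genes, and 0 higher. Regardless of size 6 of the 18 lay above all 4 animals and 5 below, beside 14.19% and 10.13% of all measured genes. The gene set apart, Akr1c18, the progesterone-metabolising enzyme of granulosa and luteal cells, had 0 counts in all 5 F2-HFHS+DHT oocytes, against 12.6, 44.0, 1.995 and 20.2 CPM in the animals. Its median F2-CD+Veh oocyte was also at 0.0 CPM, and it is among the cumulus markers. Esr1, the oestrogen receptor alpha gene, had 43.9 CPM in F2-HFHS+DHT and 34.0 CPM in F2-CD+Veh (log2 0.37), and Esr2 62.1 and 82.1 CPM (log2 -0.40). Ncoa2, a coactivator of steroid receptors, had a log2 fold of 0.63 (265 CPM in F2-HFHS+DHT and 172 CPM in F2-CD+Veh) and lay above all 4 animals, as did Nr3c1, the glucocorticoid receptor (log2 0.39). Of 12 measured PCOS locus orthologues Fdft1 alone was set apart, beside 0.775% of all measured genes set apart lower. Of the 12, 4 had positive folds, beside 46.6% of all measured genes, and the median was -0.06. Hmga2 (log2 0.18), Tox3 (log2 0.11) and Yap1 (log2 -0.16) were within the range of the animals, and Dennd1a had a log2 fold of -0.42.

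Further lower genes came from no list. Cdo1, cysteine dioxygenase, the first step from cysteine to taurine, was the most abundant of the 38. It had 208, 167, 146, 55.9 and 205 CPM in the 5 oocytes, against 386, 208, 361 and 535 CPM in the animals, so that each oocyte lay below the lowest animal, oocytes 1 and 5 narrowly. Its log2 fold was -1.06, and it was -1.19 without the cumulus-rich oocytes, -0.81 without oocyte 4, -0.87 without animal 14 and -1.24 against F2-CD+DHT. Bsg, basigin, the partner of lactate and pyruvate transporters, had 7.97, 14.46, 2.25, 20.2 and 2.28 CPM, against 38.2, 36.7, 17 and 21.3 CPM, a log2 fold of -1.63. Without the cumulus-rich oocytes it was -1.30. Bsg was the 1 gene set apart under all 22 alternatives other than the 1.5-fold threshold and the 50 CPM minimum. At that minimum it was not measured, with 28.5 CPM pooled in F2-CD+Veh. Cops4, a subunit of the COP9 signalosome that regulates ubiquitin ligases, had 16.8, 14.46, 5.62, 24.2 and 12.8 CPM, against 27.4, 36.8, 49.8 and 37.4 CPM. All 5 oocytes lay below all 4 animals, with a log2 fold of -1.31 and of -1.39 without the cumulus-rich oocytes. Npas3, a basic helix-loop-helix transcription factor gene, likewise had 9.72 to 21.7 CPM in the oocytes, against 27.6 to 41.0 CPM in the animals (log2 -1.12, with -0.98 without oocyte 5, -0.96 without animal 13 and -1.29 without the cumulus-rich oocytes). Phyh, a peroxisomal enzyme of phytanic acid breakdown, had a log2 fold of -1.12, and L3mbtl2, a Polycomb-group gene, one of -1.24, with -1.03 for Phyh and -1.12 for L3mbtl2 without those oocytes.

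Ftl1, ferritin light chain, had 6.87 CPM pooled in F2-HFHS+DHT and 23.2 CPM in F2-CD+Veh (log2 -1.75, with -0.93 without animal 3 and -0.63 without the cumulus-rich oocytes). Ddx1, an RNA helicase, had 6.29, 4.05, 5.24, 15.5 and 7.24 CPM, against 17.8, 24.3, 18.5 and 17.54 CPM (log2 -1.31), and each oocyte lay below each animal. Tfap2e, an AP-2 transcription factor gene, had log2 -1.27, Mrps5, a mitochondrial ribosomal protein gene, -1.07, Timm44, of the mitochondrial import motor, -1.03, and Cisd1, an iron-sulphur protein of the outer mitochondrial membrane, -1.16. Cfl1, cofilin, which severs actin filaments, had 35.7 CPM in F2-HFHS+DHT and 72.4 CPM in F2-CD+Veh (log2 -1.02). Without the cumulus-rich oocytes the log2 folds were -0.93 for Tfap2e, -0.84 for Mrps5, -0.89 for Timm44, -0.84 for Cisd1 and -0.75 for Cfl1. Ddx1 kept a log2 fold of -1.19 but was no longer called, since the remaining F2-CD+Veh oocytes held 18.9 CPM, under the minimum of 20 CPM. The genes still set apart lower without those oocytes were Fdft1, Cops4, Bsg, Npas3, Cdo1, Rpp25l, L3mbtl2 and Phyh.

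Most of the steepest folds belonged to transcripts whose level was far higher in some F2-CD+Veh oocytes than in the median one. Of the 16 F2-CD+Veh oocytes, Nupr1 had a count in 6, Spp1 in 8, Skil in 10, and Malat1 and B4galt1 in 16. Spp1, osteopontin, a marker of luteinising granulosa cells, had 1 count in the 5 F2-HFHS+DHT oocytes, against 31.4, 154, 1.10 and 411 CPM in animals 2, 3, 13 and 14. The median F2-CD+Veh oocyte had 0.242 CPM and the highest 1150 CPM. Nupr1, a stress-induced nuclear protein gene, had 0 counts in F2-HFHS+DHT, which allows up to 0.142 CPM at 3 counts, against 96.8 CPM pooled in F2-CD+Veh, a log2 fold of -9.41 at that bound. Its median F2-CD+Veh oocyte was at 0.0 CPM. Skil, a repressor of TGF-beta signalling, had a log2 fold of -5.25 and of -1.04 without the cumulus-rich oocytes. Malat1, a nuclear long noncoding RNA, had 8.104, 10.41, 31.1, 25.72 and 10.97 CPM, against 27.1, 254, 20.99 and 124 CPM (log2 -3.02, and -0.32 without those oocytes). B4galt1, a galactosyltransferase, had log2 -2.07 and -0.41. Without those oocytes the log2 folds of Spp1 and Akr1c18 were -3.88 and -3.06, the latter a bound at 3 counts. The remaining F2-CD+Veh oocytes held 0.698 CPM of Spp1, 1.19 CPM of Akr1c18 and 1.27 CPM of Skil. These levels are far under the minimum of 20 CPM, so the 3 folds say little.

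In the further lists for protein and energy metabolism given here no gene was set apart. Of 79 cytosolic ribosomal protein genes 7 were measured, with a median log2 fold of -0.37 and of 0.01 without the cumulus-rich oocytes. Heat shock chaperones had -0.33 over 22 genes, with Hspa4 at -1.11 inside the range of the animals, and the unfolded protein response had -0.28 over 22. In each of these 2 lists 3 of the 22 folds were positive, beside 46.6% of all measured genes, a skew much like that of the oxidative phosphorylation list. Below all 4 animals lay 3 and 4 of the 22, beside 10.13% of all measured genes. The proteasome had -0.21 over 21, with 6 positive folds, 7 genes below all 4 animals and 1 above. Glycolysis, glucose and insulin genes had -0.05 over 21. In the antioxidant list of 13 measured genes (median -0.03) Sod1, superoxide dismutase, had 49.7, 61.9, 74.5, 100 and 82.8 CPM in the 5 oocytes, against 116, 101, 120 and 109 CPM in the animals (log2 -0.60, and -0.65 without the cumulus-rich oocytes). All 5 oocytes were below all 4 animals. Gclm, the regulatory subunit of the rate-limiting enzyme of glutathione synthesis, went the other way, with 66.1 CPM in F2-HFHS+DHT and 46.7 CPM in F2-CD+Veh (log2 0.50).

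The 5 abundant transcripts Wtap, Paip1, Jag1, Insig1 and Tmf1 varied more among F2-CD+Veh animals than among the F2-HFHS+DHT oocytes. Their sum was 23530, 19440, 21200, 15280 and 26760 CPM in the 5 oocytes, against 11440 and 9084 CPM in animals 2 and 3 and 35230 and 46310 CPM in animals 13 and 14. The F2-HFHS+DHT oocytes thus lay between the low and the high pair of animals. Jag1, a Notch ligand, had 4101 to 6516 CPM in the oocytes, against 2695 to 11770 CPM in the animals. None of the 5 was set apart, with a median log2 fold of -0.14.

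Held against F2-HFHS+Veh, which by title shares the diet, 7 genes were set apart higher (0.147% of 4772 measured) and 10 lower (0.21%). Held against F2-CD+DHT, which by title shares the androgen, 18 were higher (0.377% of 4775) and 17 lower (0.356%). These comparisons share the 5 F2-HFHS+DHT oocytes, so their calls are not independent. Of the 38 genes lower than in F2-CD+Veh, 18 were below all 4 F2-HFHS+Veh animals, 17 below all 5 F2-CD+DHT animals and 12 below all 13 F2 animals. The 38 were picked as low in the same 5 oocytes, so these counts are no separate support. The share of all measured genes below those animals is not given here. Cobl, an actin nucleator, had 56.1 CPM in F2-HFHS+DHT, against 22.9 CPM in F2-HFHS+Veh (log2 1.29) and 22.17 CPM in F2-CD+DHT (log2 1.34). Gpd2, the mitochondrial glycerol-3-phosphate dehydrogenase, had 65.3 CPM in F2-HFHS+DHT and 31.7 CPM in F2-HFHS+Veh (log2 1.04). Mki67, a coat protein of mitotic chromosomes, had 157 CPM in F2-HFHS+DHT and 72.7 CPM in F2-CD+DHT (log2 1.11), and Gli2, a Hedgehog effector, 20.2 and 8.98 CPM (log2 1.17). Actb, beta-actin, was lower in F2-HFHS+DHT (134 CPM) than in F2-HFHS+Veh (371 CPM) and F2-CD+DHT (421 CPM). These 5 genes were chosen after their values were seen.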

How the data were processed

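Values are the raw counts per gene symbol that the authors deposited, and the RPKM values that the authors deposited, used as an alternative only. Per the submitters' processing notes, the tools were STAR 2.4.2a and Seurat 2.0 and the build was mm10. Not given in the sources used here were the counting program, the annotation and whether strand was used, so overlapping genes and near-identical families (Akr1c, Nlrp, ribosomal proteins) are uncertain. Of 24489 gene lines, 494 repeated a symbol and were summed to 23995 symbols, of which 22643 matched GENCODE vM21. Spike-in and eGFP lines were left out of totals, and 25 symbols turned into dates were not named. The 5 libraries were not repeats of each other (smallest chi-square per degree of freedom 10.2).

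Counts were summed over oocytes and scaled to CPM, and a group of 1 sample allowed no test. A pooled count of 0 entered folds at 3 counts. Intervals and floors cover counting error only, since Smart-seq2 has no molecular identifiers. Named genes were those set apart with the largest folds (up to 12 per direction, with at least 4 of the 5 oocytes on that side), those without overlap (up to 8), the set-apart or otherwise 2 most different members of each list, and oocyte markers; others named were chosen after their values were seen. The oocytes compared, the 21 gene lists and the 8 marker lists were chosen with earlier results of these data known. The pooling was tested on simulated data. Python 3.11.15, numpy 2.4.6, pandas 2.3.3, scipy 1.17.1, matplotlib 3.10.9, R 4.3.3, edgeR 4.0.16 (TMM factors) and DESeq2 1.42.0 (size factors) were used. Alternatives changed the scaling, level minimum, oocyte weights, values, oocyte filter, depth and fold threshold, and left out each oocyte or animal.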

Additional observations from a re-analysis of the deposited data

Results flagged for a closer look

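In 136 sets of 4 or 5 values (the F2-HFHS+DHT oocytes or the F2-CD+Veh animals) 9 held 1 value far from the rest, its gap to the nearest taking more of the range than Dixon's critical value allows. Chance flags about 1 in 20 sets. F2-HFHS+DHT oocyte 4 stood apart by 10869 genes with a count and by 15.5 CPM of Ddx1. Oocyte 1 stood apart by 0.14 CPM of Spp1, its 1 count, and by 645 CPM of Esyt2, and oocyte 2 by 19.09 CPM of Tfap2e. F2-CD+Veh animal 3 stood apart by a summed 11710 CPM of the spindle, checkpoint and cohesin list, 285 CPM of Tle6, 24.3 CPM of Ddx1 and 43.2 CPM of Hpcal1. That animal had 3 kept oocytes, 2 of them rich in cumulus RNA, and the part of this in the values was not tested.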

How the results depend on the processing

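No paired analysis was possible because the F2-HFHS+DHT oocytes name no animal and nothing was tested. Of 2 genes set apart higher and 38 lower, TMM scaling gave 12 and 21, DESeq2 size factors 13 and 20, a minimum of 5 CPM 63 and 351, no minimum 662 and 1159, and a minimum of 50 CPM 0 and 11. Equal weight for oocytes gave 6 and 19, the median oocyte 23 and 38, equal weight for F2-CD+Veh animals 4 and 31, and the RPKM values 5 and 22. Thinning to 200000 counts gave 45 and 81, a 1.5-fold threshold 72 and 179, leaving out the cumulus-rich F2-CD+Veh oocytes 18 and 18, and folds relative to genes of like length 4 and 25; these last 2 were chosen after seeing the data. Leaving out 1 oocyte or animal gave 3 to 43 higher and 20 to 112 lower. Of 6 genes separated upward and 0 downward, keeping every oocyte gave 3 upward, thinning 3, leaving out the cumulus-rich oocytes 40 upward and 5 downward, and leaving out 1 oocyte or animal, which can only keep or add to these genes, 7 to 66 upward and 0 to 4 downward. Moves were held against the standard deviation over the 5 F2-HFHS+DHT oocytes, a spread between cells of 1 sample and not between animals. Among alternatives, 123 of 528 list medians and 96 of 1032 folds of 45 genes moved by at least that much, and 0 of those folds reversed. The ribosomal list held no gene at the 50 CPM minimum. Where a count moved, the cause was not tested. The 5 oocytes of 1 sample, a level of 20 CPM in the shallow libraries and unequal cumulus RNA limit what can be read from these differences.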

Other observations

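Without the 5 F2-CD+Veh oocytes rich in cumulus RNA, 17 genes beyond Zscan29 were higher by at least 2-fold in F2-HFHS+DHT and above the F2-CD+Veh animals. Among them were Chuk, a kinase of the NF-kappaB pathway, with 26.64 CPM in F2-HFHS+DHT and 12.3 CPM in the remaining F2-CD+Veh oocytes, and Coq2, an enzyme of ubiquinone synthesis, with 23.9 and 11.1 CPM. Slc12a2, the sodium, potassium and chloride cotransporter, had 78.9 CPM in F2-HFHS+DHT and 36.9 CPM in those oocytes. The lower genes found this way included Col4a3, a basement membrane collagen, with 10.05 and 28.3 CPM, and Sil1, a nucleotide exchange factor for the chaperone BiP, with 8.25 and 20.1 CPM. These genes were chosen after their values were seen, and nothing was tested.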
